A study of Arabidopsis thaliana with 42 samples.

Results

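The transcriptome of wild-type (WT) Arabidopsis leaves was followed over the second stretch of a dark treatment, from 3 d to 6 d, in 6 of the 42 libraries of the series: 3 libraries of leaves darkened for 3 d and 3 of leaves darkened for 6 d. The leaves were individually darkened leaves (IDLs), that is, attached leaves covered while the rest of the rosette stayed in the light. All plants of these groups were Col-0 grown in short days, the leaf blades of both times were harvested at 8 am, and each library was made from a pool of 2 leaves from independent plants. The other WT groups used here were leaves before darkening (0 d) and leaves darkened for 6 h or 1 d. Further WT leaves were left in the light to match each time from 6 h to 6 d. The EMS mutant rpn12a-236 (rpn12a) carries a lesion in the proteasome subunit RPN12a. Its leaves were used from before darkening and from every time of darkness. The 6 h groups of both genotypes were harvested at 2 pm, and all others at 8 am. Each of these groups had 3 libraries.

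A covered leaf can no longer fix carbon and is fed on its own proteins, lipids and chlorophyll, and the products leave through the phloem for the rest of the plant. Abscisic acid (ABA), ethylene and jasmonate are known to promote this programme, NAC and WRKY transcription factors carry much of it, and autophagy and vacuolar proteases dismantle the cell until it dies. A comparison of 3 d with 6 d asks which of these parts were still moving late in the treatment, and which had already turned.

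The values are z-scores of each gene: a value of 0 is the mean of that gene over the 42 libraries and a value of 1 lies 1 standard deviation (SD) of the gene above it. A difference is therefore given in SDs of the gene, as the mean at 6 d less the mean at 3 d, and neither fold changes nor levels between genes can be read from it. Sequencing depth cannot be read from the scores; the study describes the size factors of its libraries as differing little. The 6 libraries were all different from each other, and their median deviation from the group mean was 0.130 to 0.207 SDs, with the highest value in replicate 1 of 3 d. The number of genes at their floor (the lowest z-score, shared by at least 2 libraries) was 5569, 5583 and 5706 at 3 d and 6026, 6114 and 5954 at 6 d, so that more genes were at the floor in every library of 6 d; the range over the series was 5215 to 6408. The p-values measure the spread between these pools. In such bulk leaf samples, fewer cells of a type and less RNA per cell cannot be told apart.

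Between 3 d and 6 d, 1698 of the 23275 genes tested rose (7.30%) and 1728 fell (7.42%) at an adjusted p of at most 0.01, 14.7% in all (limma, with Benjamini-Hochberg adjusted p-values throughout). In the same test 9106 of the 23275 genes had an unadjusted p under 0.05, in either direction. The counts of the lists below are to be read beside these values over all genes. The 3 libraries of 6 d and the 3 of 3 d did not overlap in any of these genes, and neither did they in 24.0% (6 d above 3 d) and 22.6% (6 d below 3 d) of all genes tested. The median difference was 1.45 SDs among the genes that rose, -1.46 SDs among those that fell and 0 over all genes tested. Of the genes that rose, 826 had a mean at 3 d above that of 0 d and 849 a mean below it, while 1376 (81.0%) lay above 0 d at 6 d. Of the genes that fell, 1101 (63.7%) stood above 0 d at 3 d and 473 (27.4%) still did at 6 d. Leaving out 1 of the 6 libraries at a time gave 939 to 1253 genes higher and 913 to 1270 lower, and the counts were over 1.5 times smaller without replicate 1 of 3 d (943 and 913), replicate 2 of 3 d (1047 and 1067), replicate 1 of 6 d (1046 and 1117), replicate 2 of 6 d (939 and 1018) or replicate 3 of 6 d (1035 and 1079).

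**Figure D1:**
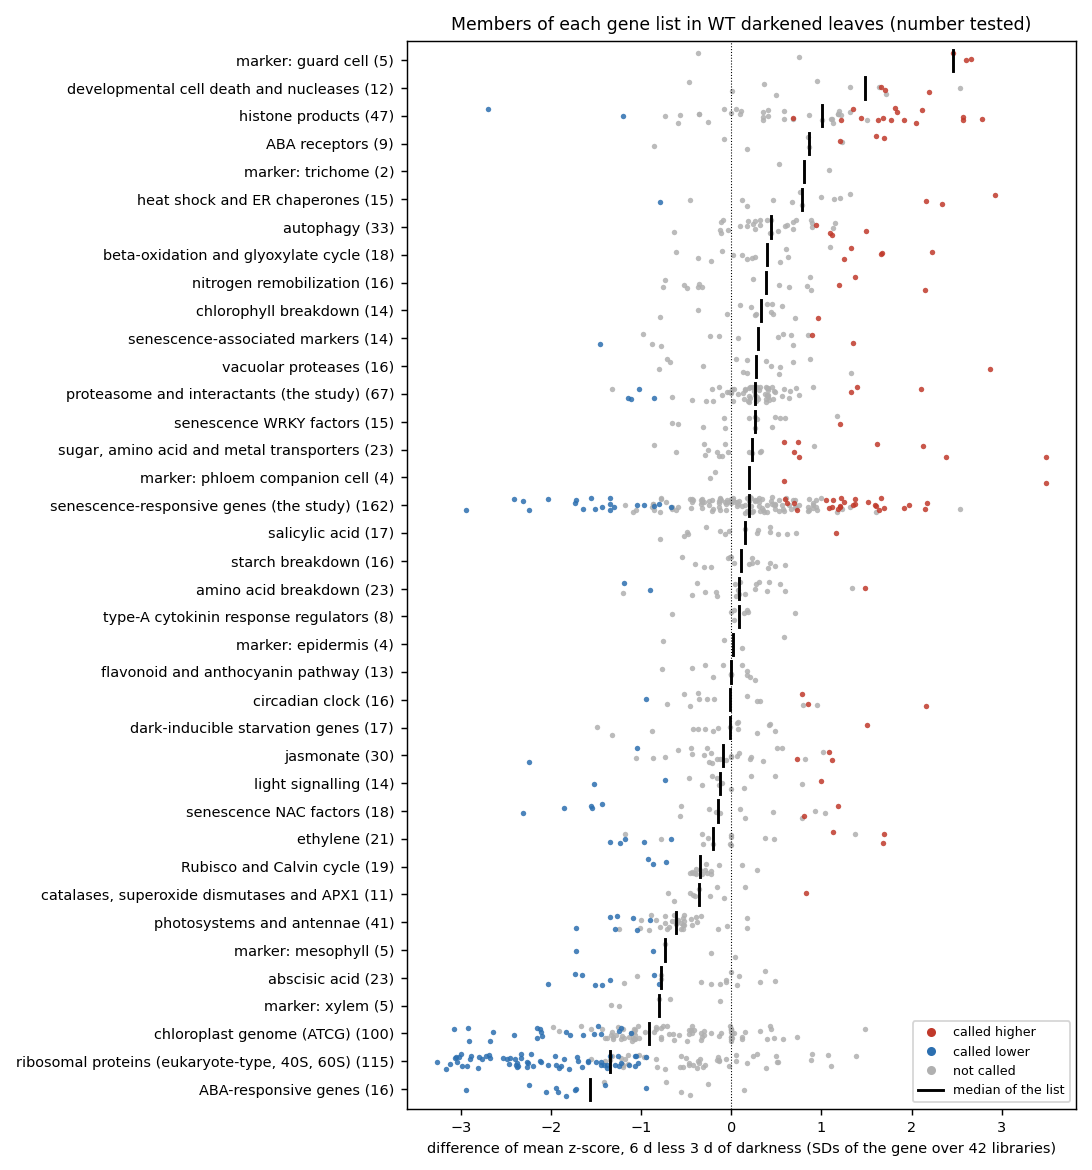
Difference of the mean z-score, 6 d less 3 d of darkness, in SDs of the gene (horizontal axis), of every tested member of each gene list (points; red, called higher; blue, called lower; grey, not called), with the list's median as a black bar. The guard cell markers (median 2.46) and the cell death list (1.48) lie to the right, and the ribosomal proteins (-1.34) and ABA-responsive genes (-1.57) to the left.

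Some genes for sucrose and proline transporters were among those with the clearest increase. SUC2, the sucrose-proton symporter that loads the phloem from companion cells, had z-scores of -2.72, -2.84 and -2.43 at 3 d and of 1.16, 0.59 and 0.72 at 6 d. Its transcript had thus dropped far below the starting point by 3 d (mean at 0 d, 0.68) and was back at it by 6 d, a difference of 3.49 SDs (SE 0.32, adjusted p = 3.34e-05). PP2-A1, the lectin-like protein of phloem exudate, went the same way, with -3.03, -2.87 and -2.49 at 3 d and 1.29, 0.62 and 0.23 at 6 d (difference 3.51, adjusted p = 2.60e-05). SUC1, a second sucrose-proton symporter, read -0.75, -0.77 and -0.58 at 3 d and 1.72, 1.65 and 1.67 at 6 d, above its mean of 0.44 at 0 d. The proline transporter gene PROT1 rose by 2.13 SDs (adjusted p = 6.40e-05), from between -0.38 and -0.24 to between 1.61 and 2.06. PHT1;5, which moves phosphate out of source leaves, rose by 1.62 SDs (adjusted p = 0.00204, but 0.0101 without replicate 3 of 6 d). In all, 8 of the 23 tested genes for sugar, amino acid and metal transporters rose and 0 fell, with a median difference of 0.23. The other 4 that rose, STP13 (0.75), PROT2 (0.70), SWEET12 (0.58) and SWEET13 (0.74), had smaller differences, and the count of the list was 4 without replicate 1 or 2 of 3 d or replicate 1 or 3 of 6 d, and 5 without replicate 3 of 3 d or replicate 2 of 6 d.

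The transporters' change was not shared by every marker of the phloem. Of the 4 companion cell markers, SUC2 and the sucrose exporter gene SWEET12 rose, whereas AHA3, a plasma membrane proton pump (1.55, 1.3 and 1.27 at 3 d against 1.68, 1.13 and 0.76 at 6 d), and APL, the phloem identity factor (1.62, 1.2 and 1.06 against 1.32, 1.23 and 0.61), overlapped between the times. SWEET12 kept the call without replicate 3 of 6 d, and had an adjusted p of 0.0215 to 0.034 without any of the other 5 libraries. The mean z-score of the 4 markers was -0.014 to 0.19 in the libraries of 3 d and 0.69 to 1.29 in those of 6 d.

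Of 5 guard cell markers 3 rose and 0 fell. FAMA, the bHLH factor that ends the stomatal lineage, read -0.72, -1.29 and -0.67 at 3 d and 1.94, 1.31 and 1.46 at 6 d (difference 2.46, adjusted p = 5.08e-05), and MYB60, a guard cell MYB factor, -1.4, -3.09 and -2.57 against 0.44, -0.067 and 0.35 (difference 2.6, adjusted p = 5.65e-04). SLAC1, the anion channel of stomatal closure, was spread at 3 d (0.12, -1.64 and -1.87) and at 1.84, 1.3 and 1.45 at 6 d; its call (adjusted p = 0.00229) was lost without replicate 2 of 3 d (0.0114), replicate 3 of 3 d (0.0102) or replicate 1 of 6 d (0.0108). The other 2 of the 5 guard cell markers, the potassium channel gene KAT1 (difference -0.37, adjusted p = 0.118) and the kinase gene HT1 (0.75, adjusted p = 0.383), did not pass the test. The mean of the 5 markers was -0.98 to -0.14 at 3 d and 0.71 to 1.25 at 6 d. Over the same time 0 of 4 tested epidermis markers, 0 of 5 xylem markers and 0 of 2 trichome markers passed the limma test (at an unadjusted p under 0.05, 1 higher and 1 lower, 2 lower, and 1 higher), and 2 of 5 mesophyll markers, LHCB1.3 and RBCS1A, fell, the latter not without replicate 1 or 2 of 3 d or replicate 3 of 6 d. Over all genes tested 9106 of 23275 had an unadjusted p under 0.05. The mean of the mesophyll markers was -1.03 to -0.76 at 3 d and -1.81 to -1.49 at 6 d. The mean of the xylem markers was -0.63 to -0.26 at 3 d and -1.49 to -1.03 at 6 d, and that of the epidermis markers -1.14 to -0.28 and -0.99 to -0.63. The part of a shift in cell types in the changes reported here was not tested.

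**Figure D2:**
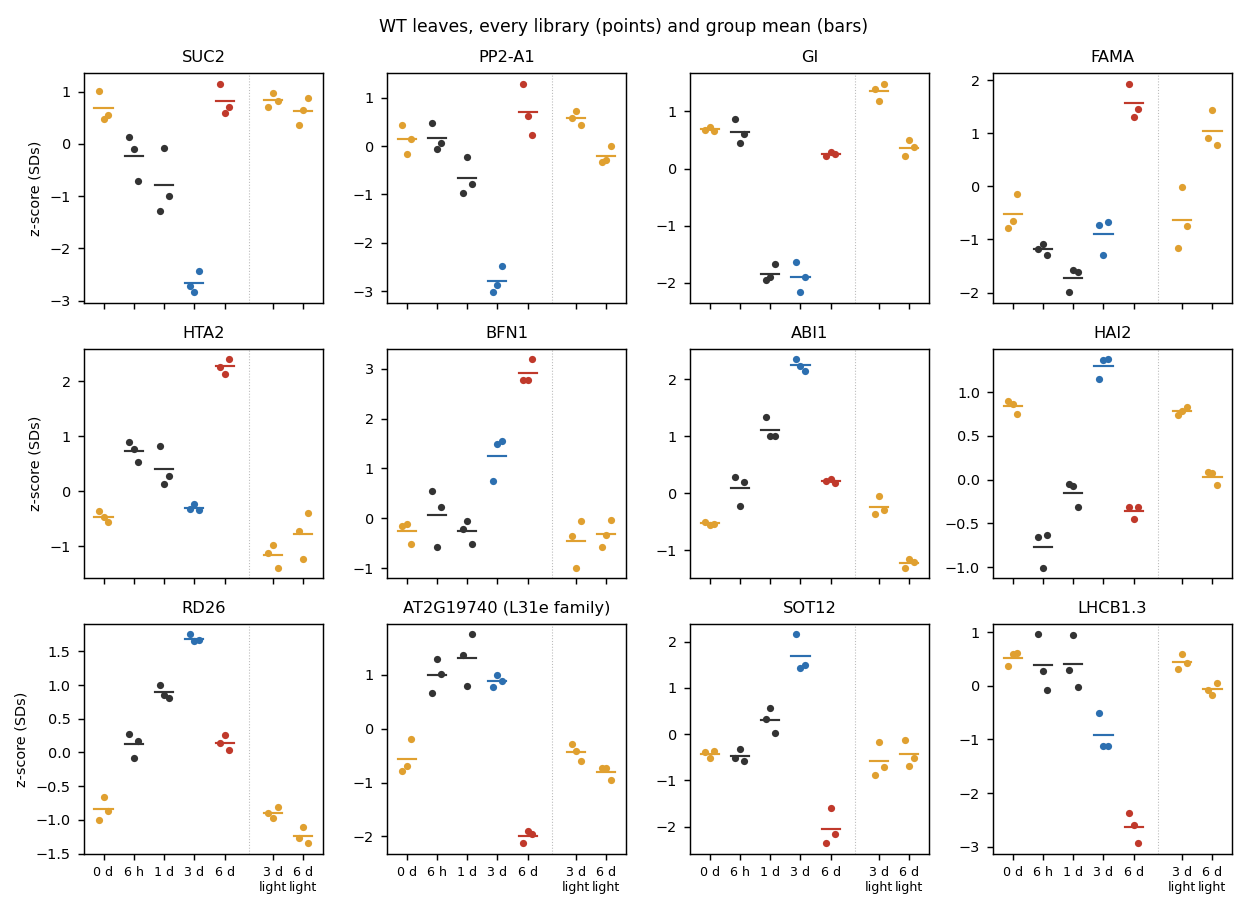
Z-scores in SDs (vertical axis) of 12 genes in every WT library (points; bars are means of 3 libraries) before darkening, over 6 h to 6 d of darkness, and in leaves left in the light for 3 d and 6 d. SUC2 and PP2-A1 lie lowest at 3 d, ABI1 and RD26 highest at 3 d, and BFN1 and LHCB1.3 continue in 1 direction from 3 d to 6 d.

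Genes for nitrogen assimilation into transport forms rose in part. NIA1, a nitrate reductase, had 0.64, 0.29 and 0.52 at 3 d and 2.61, 2.63 and 2.66 at 6 d (difference 2.15, adjusted p = 1.46e-04), and GLN1;2, a cytosolic glutamine synthetase, 0.76, 0.83 and 0.79 against 1.97, 2.1 and 1.90 (difference 1.2, adjusted p = 5.33e-04). At 3 d every library of GLN1;2 was above its mean of 0 d (0.25), whereas those of NIA1 lay on both sides of its mean of 0 d (0.39). The libraries of each time lay close together. GLN1;1 rose by 1.37 SDs (adjusted p = 0.00635), but kept the call only without replicate 3 of 3 d (0.0137 to 0.0325 without the others). The plastid enzyme gene GLN2 differed by -0.49 (adjusted p = 0.0147) and the asparagine synthetase gene DIN6 by -0.37 (adjusted p = 0.362), and 3 of 16 members rose and 0 fell. PRODH1, the first enzyme of proline breakdown, went from -0.46, -0.92 and -0.94 to 0.77, 0.68 and 0.68 (difference 1.48, adjusted p = 2.54e-04). It was the 1 gene of the 23 for amino acid breakdown that rose (4.35% rose and 8.7% fell, against 7.30% and 7.42% of all genes tested). The other 2 that passed fell: MGL, methionine gamma-lyase (-1.19), and BCKDHE1A, a subunit of the branched-chain keto acid dehydrogenase (-0.90), and each lost the call without any 1 of the 6 libraries (adjusted p 0.0124 to 0.0418 and 0.0229 to 0.0304).

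Of 12 tested genes of cell death 3 rose, each to its highest group mean of the WT dark course, and 0 fell. PASPA3, an aspartic protease known from developmental cell death, had -0.50, 0.18 and 0.19 at 3 d and 2.00, 1.87 and 2.57 at 6 d (difference 2.19, adjusted p = 1.57e-04). BFN1, the bifunctional nuclease that degrades DNA and RNA of dying cells, had risen to 0.74, 1.48 and 1.54 at 3 d and reached 2.78, 2.78 and 3.19 at 6 d (difference 1.66, adjusted p = 0.00168). MC9, a metacaspase, rose by 1.7 SDs (adjusted p = 0.00249); its call was lost without replicate 1 of 3 d (0.0102), replicate 2 of 3 d (0.0126) or replicate 3 of 6 d (0.0128). The median difference of the 12 genes was 1.48. The list's mean z-score was 0.41 to 0.63 in the libraries of 3 d and 1.56 to 1.79 in those of 6 d. Among the vacuolar proteases, 1 of 16 rose (6.25%, against 7.30% of all genes tested). This was DELTA-VPE, a processing enzyme best known from seeds, which was at its floor in 2 of the 3 libraries of 3 d (1.4, -0.38 and -0.38) and at 3.16, 2.72 and 3.36 at 6 d. DELTA-VPE was also at this floor in all WT libraries of 6 h and 1 d of darkness (mean -0.38), and it passed the filter only through 6 d. Its adjusted p was 0.00208, and 0.0107 without replicate 2 of 3 d. The call was also lost without replicate 3 of 6 d. SAG12, the senescence-specific cysteine protease, was already high at 3 d (1.54, 1.92 and 2.15) and somewhat higher at 6 d (2.46, 2.5 and 2.72), without overlap, but did not pass the test (difference 0.69, adjusted p = 0.0232).

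Of 33 tested autophagy genes, whose products wrap cytoplasm for delivery to the vacuole, 4 rose and 0 fell, with a median difference of 0.44 (17 and 0 at an unadjusted p under 0.05). That unadjusted p was reached by 9106 of the 23275 genes tested, in either direction. ATG3, the conjugating enzyme of ATG8, went from 0.99, 1.3 and 1.34 to 2.18, 2.47 and 2.34 (adjusted p = 8.04e-04), and ATG8D, 1 of the membrane-bound ATG8 proteins, from -0.081, 0.20 and 0.22 to 1.04, 1.26 and 1.31 (adjusted p = 0.00119). ATG4B (1.49) and ATG8C (0.94) also passed, whereas ATG8H did not (difference -0.11, adjusted p = 0.788). The count was 2 without replicate 1 or 2 of 3 d or replicate 2 or 3 of 6 d. In peroxisomal fatty acid breakdown 5 of 18 genes rose and 0 fell (median 0.40). ACX3, a medium-chain acyl-CoA oxidase, rose from -0.29, 0.68 and 1.03 to 2.61, 2.61 and 2.87 (adjusted p = 8.28e-04), and the peroxisomal malate dehydrogenase PMDH1 from -1.60, -0.71 and -0.62 to 0.53, 0.75 and 0.80 (adjusted p = 0.00164). LACS7 (1.66), PXA1 (1.25) and MFP2 (1.33), for fatty acid activation, import and the reactions after the oxidase, completed the list, whose count was 2 without replicate 1 of 3 d or replicate 1 or 2 of 6 d, and 3 without replicate 3 of 6 d.

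Of 14 tested genes of chlorophyll breakdown 1 rose (7.14%, against 7.30% of all genes tested) and 0 fell. NYE1, which takes magnesium from chlorophyll a, was at 1.59, 1.98 and 2.06 at 3 d and 2.19, 2.25 and 2.39 at 6 d (difference 0.40, adjusted p = 0.245). NYC1 (0.45, adjusted p = 0.173), PAO (0.26, adjusted p = 0.348) and PPH (0.71, adjusted p = 0.0151), which act on chlorophyll b, pheophorbide and pheophytin, also missed the threshold. Other members lay below their gene means at 3 d, among them CLH1, a chlorophyllase, whose mean went from -0.70 to -1.49 (adjusted p = 0.0281), and TIC55, whose mean went from -0.21 to 0.25 (adjusted p = 0.063). The 1 gene that passed, HCAR, a reductase of the chlorophyll b branch, rose from between -0.40 and -0.33 to between 0.50 and 0.65, and its call (adjusted p = 0.00275) was lost without replicate 1 or 2 of 3 d or replicate 1 or 2 of 6 d (0.0113 to 0.0121). The NAC factors ORE1 (1.23, 1.26 and 1.28 against 1.14, 1.14 and 1.11) and NAP (1.44, 1.59 and 1.65 against 1.25, 1.31 and 1.37) stayed near their values of 3 d (adjusted p = 0.571 and 0.219). Likewise the test did not call WRKY53 (0.29, adjusted p = 0.421), SEN1, also known as DIN1 (0.074, adjusted p = 0.756), and RPN12a itself (0.021, adjusted p = 0.943).

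Among the senescence-associated markers, the directions were mixed. SAG20 rose from 0.27, 0.21 and 0.37 to 1.2, 1.11 and 1.23 (adjusted p = 6.60e-04) and SAG18 by 1.35 SDs (adjusted p = 0.00247, but 0.0123 without replicate 1 of 3 d, 0.0112 without replicate 1 of 6 d and 0.0123 without replicate 3 of 6 d). SAG21, a late embryogenesis abundant protein gene, fell from 1.7, 1.56 and 1.52 to 0.13, 0.15 and 0.13 (adjusted p = 7.07e-05). Thus 2 of 14 rose and 1 fell, and 1 rose without replicate 1 or 3 of 6 d. These shares were 14.3% and 7.14%, against 7.30% and 7.42% of all genes tested.

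Of the ABA signalling genes, 8 in a list of 23 fell and 0 rose. In this pathway PYR/PYL receptors bind ABA and block clade A protein phosphatases (PP2Cs), which frees SnRK2 kinases to activate the ABF transcription factors, and the PP2C and ABF genes are themselves induced by ABA. ABI1, a clade A PP2C, stood at 2.36, 2.24 and 2.15 at 3 d and at 0.22, 0.25 and 0.18 at 6 d, a difference of -2.03 SDs (SE 0.17, adjusted p = 2.37e-05). Its group mean had climbed from -0.53 at 0 d over 1.12 at 1 d before it dropped. HAI2, a further PP2C, fell from 1.15, 1.37 and 1.38 to -0.31, -0.45 and -0.31 (adjusted p = 4.26e-05), and ABI2 from 1.49, 1.26 and 1.08 to -0.39, -0.37 and -0.59 (adjusted p = 9.26e-05). The ABRE-binding factor gene ABF2 fell from 1.47, 1.48 and 1.29 to -0.022, 0.13 and 0.082 (adjusted p = 9.72e-05). With AHG3 (-1.43), ABF3 (-1.51), HAB1 (-0.86) and ABF4 (-0.80), 8 of 23 tested genes of ABA synthesis, breakdown and signalling fell and 0 rose, at a median difference of -0.78, and the count was 8 without any 1 of the 6 libraries. Some receptor genes rose: PYL1 went from -0.78, -0.16 and -0.36 to 1.29, 1.05 and 1.18 (adjusted p = 1.43e-04), PYL4 from -1.32, -1.45 and -0.99 to -0.02, -0.075 and -0.043 (adjusted p = 4.06e-04), and PYR1 by 1.69 SDs (adjusted p = 0.00272, but 0.0149 without replicate 1 of 3 d and 0.0134 without replicate 2 of 6 d). These made 3 of 9 tested receptor genes that rose, and 0 fell.

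Many genes known to respond to ABA fell too. PUB19, a U-box ubiquitin ligase, had 1.12, 1.19 and 1.16 at 3 d and -0.82, -0.87 and -1.03 at 6 d (difference -2.06, SE 0.14, adjusted p = 5.85e-06), and its relative PUB18 1.55, 1.43 and 1.35 against -0.49, -0.94 and -0.96 (difference -2.24). The homeobox gene HB-12 fell from 1.2, 1.12 and 1.07 to -0.66, -0.66 and -0.79 (adjusted p = 1.05e-05), and MYB96, an ABA-related MYB factor of wax synthesis, from 1.19, 1.07 and 0.72 to -2.13, -1.64 and -2.08 (adjusted p = 1.05e-05). Of 16 such genes 10 fell and 0 rose, with a median of -1.57. GBF3 (-1.92), AFP3 (-1.94), RD29A (-1.72), RD22 (-1.73), AFP1 (-1.4) and HB-7 (-0.95) were the others, and all but HB-7 kept the call without any 1 of the 6 libraries. This list and that of the receptors were drawn up after PUB19, HB-12 and MYB96 had been seen. The stress-related NAC factors RD26 (1.75, 1.65 and 1.67 against 0.14, 0.25 and 0.041), ATAF1 (0.96, 1.17 and 1.3 against -0.39, -0.17 and -0.67), NAC102 (1.67, 2.37 and 2.49 against -0.028, 0.036 and -0.42), NAC019 (2.19, 2.11 and 2.19 against 0.70, 0.66 and 0.84) and NAC032 (-1.86) also fell, at adjusted p from 5.46e-05 to 6.69e-04. They were 5 of 18 senescence NAC factors, against 2 that rose, VNI2 (1.18) and NAC046 (0.81). VNI2 kept its call only without replicate 3 of 3 d, and NAC046 lost it without any 1 of the 6 libraries.

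ABFs bind the ABA-responsive element (ABRE), whose core is ACGTG, in promoters. The promoter windows of 3 genes that fell are shown for this core; each is the 250 bases before the annotated gene start in the RefSeq annotation of build TAIR10.1, overlaps no other annotated gene and is given in lower case with every core, on either strand, in capitals. PUB19 (chr1:22198016-22198265, plus strand) holds 7 matches, of which 6 are both strands of the 3 G-boxes CACGTG, HAI2 (chr1:2282829-2283078, minus strand) holds 4, and RD26 (chr4:13709171-13709420, minus strand) holds 1.
PUB19: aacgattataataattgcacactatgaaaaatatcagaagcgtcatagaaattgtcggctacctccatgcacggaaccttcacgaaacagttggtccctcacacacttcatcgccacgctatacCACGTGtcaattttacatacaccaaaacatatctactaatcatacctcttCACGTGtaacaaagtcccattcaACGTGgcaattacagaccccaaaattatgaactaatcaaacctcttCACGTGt
HAI2: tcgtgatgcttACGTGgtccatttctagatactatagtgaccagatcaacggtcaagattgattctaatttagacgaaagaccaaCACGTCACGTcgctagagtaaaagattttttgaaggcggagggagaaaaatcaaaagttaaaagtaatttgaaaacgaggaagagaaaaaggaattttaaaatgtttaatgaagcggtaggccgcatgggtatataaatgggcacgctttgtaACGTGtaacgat
RD26: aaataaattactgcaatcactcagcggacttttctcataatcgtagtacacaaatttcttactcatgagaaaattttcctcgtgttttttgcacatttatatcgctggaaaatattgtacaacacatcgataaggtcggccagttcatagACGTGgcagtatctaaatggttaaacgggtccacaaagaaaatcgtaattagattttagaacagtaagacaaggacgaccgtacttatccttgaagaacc
The core occurred in 26.2% of the windows of the genes that fell, 21.3% of those that rose and 22.8% of all genes tested. It was in 62.5% of the 16 ABA-responsive genes and 60.9% of the 23 ABA genes. Both lists were made of ABA genes, so such shares would be found whether or not these genes fell. The core was also in 42.6% of the windows of 47 histone genes, of which 15 rose and 2 fell. Of 115 ribosomal protein genes, of which 65 fell and 0 rose, 16.5% held it. The G-box, which contains the core, was in 9.48% of the windows of the genes that fell, 5.95% of those that rose and 6.94% of all. In the same order of genes that fell, genes that rose and all genes, the W-box core TTGAC was in 41.7%, 45.6% and 44.8%, the evening element AAAATATCT in 2.24%, 2.95% and 2.41%, the I-box core GATAA in 55.2%, 54.3% and 54.9%, and the NAC core CACG, which overlaps the G-box, in 47.2%, 44.3% and 46.0%. These shares describe the windows and were not tested, and a match is not a bound site.

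Ribosomal protein genes fell in large number. Of 325 tested nuclear genes whose RefSeq product names a ribosomal protein, 146 fell and 4 rose, at a median difference of -1.13. Restricted to the 115 with a eukaryote-type family name or a 40S or 60S subunit in the product, which mark the ribosome of the cytosol, 65 fell (56.5%) and 0 rose, at a median of -1.34, and 43 fell without replicate 2 of 6 d. RPS15A, of the small subunit, which is among the 325 genes but not the 115, had 0.94, 0.45 and 0.69 at 3 d and -2.56, -2.66 and -2.31 at 6 d (difference -3.20, adjusted p = 2.37e-05). The L31e family gene AT2G19740 had 0.77, 1.00 and 0.90 against -2.13, -1.90 and -1.96 (difference -2.89, adjusted p = 2.84e-05), the S10p/S20e family gene AT5G62300 1.57, 0.94 and 1.07 against -1.85, -1.99 and -1.94 (difference -3.12), and the S26e family gene AT3G56340 0.14, 0.032 and -0.21 against -2.61, -2.59 and -1.95 (difference -2.37). In each of these genes the 3 libraries of 6 d were lower than all WT group means of the dark course before them. The mean z-score of the 115 genes was 0.33 to 0.51 in the libraries of 3 d and -1.07 to -0.72 in those of 6 d, after -0.28 to 0.30 at 0 d. Of the 4 that rose, RPS19 (1.22, adjusted p = 7.05e-04) and AT1G16740, of the L20 family (1.06), have names used for organelle ribosomes, MEE5 (1.72) is listed under a shared elongation factor domain, and AT2G07675 (0.97) is an S12/S23 family gene; 2 of the 4 passed without replicate 1 or 3 of 3 d. Many ribosomal protein genes have near-identical copies, between which the estimated counts can be split, so that values of single copies are uncertain. The list was formed after these genes had been seen among those that fell.

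Promoters of ribosomal protein genes in Arabidopsis are known for the site II element (TGGGCC or TGGGCT) and the telo-box (AAACCCTA). Of the windows of the 115 genes, 69 held a site II element and 16.5% a telo-box, against 21.0% and 3.81% of all genes tested, 25% and 5.18% of the genes that fell and 22.4% and 3.42% of those that rose. The window of AT3G56340 (chr3:20893479-20893728, minus strand, TAIR10.1) is shown because it overlaps no other gene and holds 2 site II elements near the gene start, in capitals, and no telo-box.
AT3G56340: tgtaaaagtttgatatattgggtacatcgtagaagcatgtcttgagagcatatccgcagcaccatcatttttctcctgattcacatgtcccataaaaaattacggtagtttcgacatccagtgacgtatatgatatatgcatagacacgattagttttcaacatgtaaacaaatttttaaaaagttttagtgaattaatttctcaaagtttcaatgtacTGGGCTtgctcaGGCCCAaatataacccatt
Such a share belongs to the gene family and would be found for it whether or not its genes moved.

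**Figure D3:**
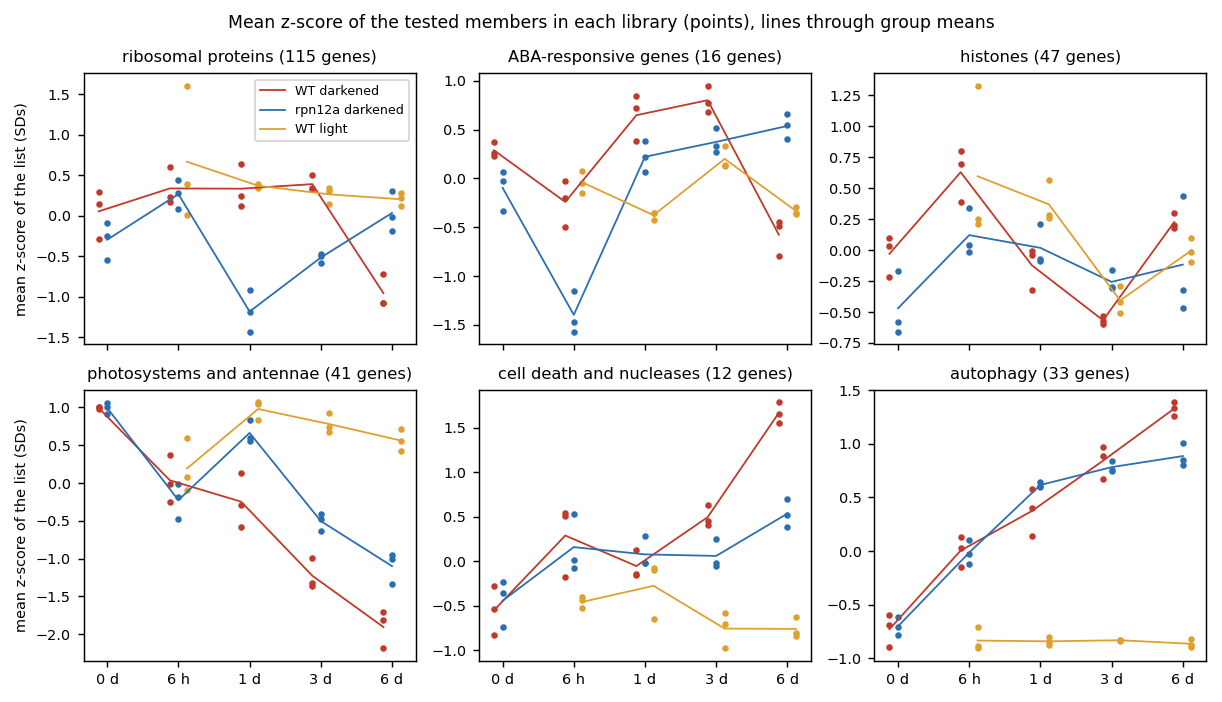
Mean z-score in SDs over the tested members of 6 lists (vertical axis) in each library (points) of WT darkened, rpn12a darkened and WT light leaves, with lines through the group means, by time (horizontal axis, not to scale; the 0 d leaves start both dark courses). In WT darkened leaves, the list means of ribosomal proteins and ABA-responsive genes are lower at 6 d than at 3 d, that of histones is higher, and those of photosystems, cell death and autophagy genes continue their earlier direction.

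Of 47 tested genes with a histone product, whose proteins package DNA, 15 rose and 2 fell, at a median difference of 1.01. AT2G28720, a histone superfamily gene, went from -0.95, -1.09 and -1.28 to 1.61, 1.79 and 1.62 (difference 2.78, adjusted p = 5.76e-06), HTA2, an H2A gene, from -0.33, -0.22 and -0.34 to 2.27, 2.14 and 2.4 (difference 2.57, adjusted p = 1.05e-05), and HTB1 from -0.69, -0.24 and -0.34 to 2.24, 2.16 and 2.04 (difference 2.57). AT4G40040 rose from between 0.034 and 0.38 to between 1.97 and 2.13. The 2 that fell were also H2A genes, HTA4 (1.32, 1.06 and 0.56 against -1.68, -1.73 and -1.76) and HTA9 (-1.2). The list was formed after HTA2 had been seen, and its members too have near-identical copies. Leaving out 1 library gave 13 or 14 that rose and 2 that fell.

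Of 41 tested photosystem and antenna genes, whose mean z-score was -1.36 to -0.99 in the libraries of 3 d against 0.98 to 1.00 at 0 d, 7 fell and 0 rose, at a median of -0.61 (33 and 0 at an unadjusted p under 0.05, beside 9106 of all 23275 genes tested in either direction). LHCB1.3, a chlorophyll-binding antenna protein, had -0.51, -1.12 and -1.12 at 3 d and -2.36, -2.6 and -2.93 at 6 d (difference -1.72, adjusted p = 0.00158). LHCA2 (-1.29), PSAG (-1.27), PSAF (-1.09), PSAE2 (-1.35), PSAL (-1.05) and PSAH1 (-0.90), all of photosystem I, fell too. The count was 1 without replicate 1 of 3 d, 4 without replicate 2 of 3 d, 3 without replicate 2 of 6 d and 1 without replicate 3 of 6 d, and LHCB1.3 was the member that kept its call each time. RBCS1A, the small subunit of Rubisco, had -1.16, -1.39 and -1.43 against -2.05, -2.04 and -2.48 (adjusted p = 0.00347) and GAPA1, a Calvin cycle dehydrogenase, -1.13, -1.42 and -1.42 against -2.17, -2.08 and -2.5 (adjusted p = 0.00243). With RPE (-0.72) these were the 3 of 19 Calvin cycle genes that fell, and 0 rose; 0 of them passed without replicate 1 of 3 d or replicate 3 of 6 d, and 1 without replicate 2 of 3 d. Of 100 tested genes of the chloroplast genome 20 fell and 0 rose, with a median of -0.91, and 13 fell without replicate 2 of 3 d, replicate 2 of 6 d or replicate 3 of 6 d. The lowest p of these was that of ATCG01020, with 0.72, 0.33 and -0.34 at 3 d and -2.56, -2.55 and -3.40 at 6 d (adjusted p = 7.07e-05). Of 102 genes of the mitochondrial genome 8 fell and 1 rose (median -0.45), and 4 fell without replicate 1 of 6 d and 5 without replicate 2 of 3 d, while the 1 that rose lost the call without replicate 1 or 3 of 3 d or replicate 1 or 2 of 6 d. The share that fell, 7.84%, was near the 7.42% of all genes tested. Organelle transcripts enter oligo(dT)-selected libraries in part only, so their values depend on that selection as well as on their amount.

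Ethylene genes moved in both directions. The receptor genes ERS1 (0.96, 0.74 and 0.75 against -0.25, -0.33 and -0.52) and ERS2 (1.66, 1.59 and 1.4 against 0.49, 0.30 and 0.16) and the kinase gene CTR1 (1.04, 0.79 and 0.75 against -0.47, -0.51 and -0.44), which hold the pathway off when no ethylene is bound, fell at adjusted p of 1.43e-04, 3.34e-04 and 7.07e-05. By contrast EIN2, the central transducer, rose by 1.13 SDs (adjusted p = 0.00157). EIL1 (-0.97) and EBF2 (-0.67) fell and the receptor gene EIN4 rose (1.69), the last 2 with 5 of the 6 left-out libraries ending the call. In sum 3 of 21 rose and 5 fell. The repressor-type factors ERF8 (1.29, 1.08 and 0.98 against -1.57, -2.01 and -1.91) and ERF4 (0.14, 0.27 and 0.31 against -2.11, -2.29 and -2.11) fell by 2.94 and 2.41 SDs, both at an adjusted p of 2.60e-05. Among 30 jasmonate genes 3 rose and 2 fell. LOX2, the plastid lipoxygenase of jasmonate synthesis, dropped from 0.17, -0.14 and -0.11 to -2.53, -2.41 and -1.88 (adjusted p = 9.06e-05) and the repressor gene JAZ1 fell by 1.04 SDs (adjusted p = 0.00154). JAZ4 (1.08), JAR1 (0.73) and the receptor gene COI1 (1.12) rose, and the number of them that passed was 0 without replicate 1 of 3 d or replicate 2 of 6 d and 1 without replicate 2 of 3 d or replicate 1 or 3 of 6 d. Of 17 salicylic acid genes EPS1 rose (1.16, adjusted p = 9.87e-04), and 0 fell. The share that rose, 5.88%, was near the 7.30% of all genes tested.

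Clock and light signalling genes, read at 8 am at both times, differed in a few members. GI, a clock protein gene, had been -1.64, -2.17 and -1.90 at 3 d, near its mean of -1.84 at 1 d, and was at 0.23, 0.29 and 0.25 at 6 d (difference 2.16, SE 0.17, adjusted p = 2.09e-05). Its mean was 0.68 at 0 d, and 1.35 and 0.37 in the light leaves of 3 d and 6 d. FKF1, a blue-light receptor that partners with GI, rose from between -0.42 and -0.23 to between 0.43 and 0.60 (adjusted p = 6.76e-04). ELF4 fell by 0.95 SDs (adjusted p = 0.00198, but 0.0102 without replicate 3 of 6 d) and ZTL rose by 0.79 (lost without any 1 of the 6 libraries), which made 3 of 16 clock genes higher and 1 lower. Of 14 light signalling genes PIF3, which represses light responses in the dark, fell from 1.3, 0.93 and 1.00 to -0.26, -0.44 and -0.63 (adjusted p = 0.00182, but 0.0103 without replicate 1 of 3 d), PIF7 fell by 0.74 and GLK2, a factor of chloroplast development, rose by 1.00; PIF7 kept its call only without replicate 2 of 3 d, and GLK2 only without replicate 1 of 3 d or replicate 3 of 6 d. Of these 14 genes 7.14% rose and 14.3% fell, against 7.30% and 7.42% of all genes tested. BZIP11, a sugar-responsive bZIP factor, was the 1 of 17 starvation genes that rose, from -0.59, -0.41 and -0.71 to 1.18, 0.79 and 0.82 (adjusted p = 2.66e-04). That share, 5.88%, was also near the 7.30% of all genes tested.

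Of 15 tested chaperone genes 3 rose and 1 fell. BIP3, the stress-inducible chaperone of the endoplasmic reticulum, rose from -0.90, -0.68 and -0.85 to 1.06, 1.62 and 1.36 (adjusted p = 0.00116). HSP17.6II, a small cytosolic heat shock protein gene, was at its floor in all libraries of 3 d (-0.51) and at 3.29, 2.68 and 1.31 at 6 d (adjusted p = 0.00158), and HSP17.6C rose by 2.34, a call it kept only without replicate 3 of 6 d. The heat shock factor gene HSFA2 fell by 0.79 and lost the call without any 1 of the 6 libraries. CAT1 rose among 11 genes for catalases, superoxide dismutases and APX1 (9.09%), and WRKY18 among 15 WRKY factors (6.67%). Both shares were near the 7.30% of all genes tested, and both genes lost the call without any 1 library. Genes for starch breakdown (16 tested), the flavonoid pathway (13) and type-A cytokinin response regulators (8) gave 0 calls in the limma test. At an unadjusted p under 0.05 there were 2 higher and 1 lower, 0 and 2, and 0 and 1, beside 9106 of all 23275 genes tested in either direction.

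The study's own lists were mixed. Of 162 senescence-responsive genes 26 rose and 20 fell (median 0.20), the latter including ABI1, ERF8, ERF4 and CTR1, and without 1 library 12 to 18 rose and 18 or 19 fell. The number that rose was 13 without replicate 1 of 3 d, 15 without replicate 2 of 3 d, 14 without replicate 1 of 6 d, 12 without replicate 2 of 6 d and 13 without replicate 3 of 6 d. Of 67 proteasome genes and interactants 3 rose and 4 fell (median 0.26), 4.48% and 5.97% against 7.30% and 7.42% of all genes tested. Of these AT3G02200, with a PCI domain, fell from 0.70, 0.54 and 0.53 to -0.40, -0.65 and -0.50 (adjusted p = 4.85e-04) and kept the call without any 1 library. The count that rose was 0 without replicate 1 or 2 of 3 d or replicate 2 or 3 of 6 d and 1 without replicate 1 of 6 d, and the count that fell was 2 without replicate 3 of 3 d and 1 without any of the other 5 libraries.

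Outside the lists, the 12 genes with the largest positive and the 12 with the largest negative statistic that have a symbol were taken. CDG1, a receptor-like cytoplasmic kinase of brassinosteroid signalling, went from 0.50, -0.33 and 0.46 to 3.36, 3.46 and 3.61 (difference 3.27, adjusted p = 5.76e-06). CDG1 was at its floor of -0.33 in all WT libraries of 0 d, 6 h and 1 d and in 1 library of 3 d. It thus passed the filter only through 6 d, and its p-value rests in part on groups without spread. HCF208, a factor of cytochrome b6f assembly, went from -1.19, -1.38 and -1.41 to 1.27, 1.41 and 1.68 and ACBP4, an acyl-CoA-binding protein, from -1.88, -2.14 and -1.65 to 0.95, 0.91 and 1.74. AR791 (1.88), ARO2 (2.24) and UGT85A2 (1.82) rose as well. In the opposite direction SOT12, a cytosolic sulfotransferase, fell from 2.15, 1.44 and 1.48 to -2.36, -1.60 and -2.16, a difference of -3.73 SDs and the largest in size among the genes that fell (SE 0.24, adjusted p = 5.76e-06). Its group mean had risen from -0.42 at 0 d to 0.31 at 1 d before that. FBL17, an F-box protein of the cell cycle, fell from 0.27, 0.09 and 0.39 to -2.33, -1.98 and -2.22, the transporter gene ABCC12 from 0.01, -0.093 and 0.15 to -2.38, -2.01 and -2.30, HL, a HAL2-like protein, by 2.25 and BEH2, of the brassinosteroid-regulated BES1/BZR1 family, by 2.14 SDs. Apart from CDG1, all of these genes kept the call without any 1 of the 6 libraries. CDG1 kept it too, but its groups without spread stayed in those fits, so this gives its call no support.

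Some genes crossed their floor. There were 69 tested genes at the floor in all 3 libraries of 3 d and above it in all 3 of 6 d, and 137 the other way. Since a gene needed 3 libraries above the floor to be tested, some passed the filter only through the time at which they were high, so the number called among them is not given. PGSIP5, a glycogenin-like protein gene, went from -0.34 in each library of 3 d to 2.77, 3.55 and 3.38, and the suberin hydroxylase gene CYP86A1 from -0.50 to 3.03, 2.88 and 2.39. SHV2, a COBRA-like protein gene, the thalianol synthase gene THAS1 and the precursor gene MIR5643a, which were also at the floor at 3 d, could not be tested once a library of 6 d was left out, and their calls follow from the filter. WAG2, a protein kinase gene, went from 0.90, 0.80 and 0.69 down to a floor of -1.08, and the late embryogenesis abundant protein gene M10 from 2.79, 2.28 and 2.17 to -0.74. CYP71B14 (-1.01), PQL3 (-1.46) and LAC2 (-2.32) were further examples.

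Time alone was examined in leaves that stayed in the light. Among these, 193 of 24166 genes (0.799%) rose from 3 d to 6 d and 358 (1.48%) fell, 2.28% in all. The change itself differed between darkened and light leaves in 1590 genes (6.58%): it was more positive in darkness for 809 (3.35%) and more negative for 781 (3.23%). No library is shared by the 2 changes compared here, but the darkened libraries are those of the comparison above. SUC2 changed by 3.49 SDs in darkness and by -0.19 in the light (adjusted p of the difference 1.09e-05), PP2-A1 by 3.51 and -0.78 (6.30e-06), GI by 2.16 and -0.99 (4.90e-06) and SOT12 by -3.73 and 0.15 (3.57e-06). For LOX2 (-2.24 and 0.10, adjusted p = 9.95e-05), RD26 (-1.54 and -0.34, adjusted p = 9.13e-04) and PASPA3 (2.19 and -0.082, adjusted p = 4.83e-04) the change also differed. The test of the difference was not passed for FAMA (2.46 and 1.68, adjusted p = 0.356), ERF8 (-2.94 and -2.06, adjusted p = 0.246), ATAF1 (-1.55 and -0.97, adjusted p = 0.14) or CTR1 (-1.34 and -0.82, adjusted p = 0.225). Their changes in light leaves had the same sign. In the limma test of light leaves alone, FAMA (adjusted p = 0.00899), ERF8 (0.00112) and ATAF1 (0.00295) were called, and CTR1 (0.0128) was not. Of the 115 ribosomal protein genes the change was lower in darkness for 28 and higher for 2, of the 16 ABA-responsive genes lower for 6 and higher for 0 (and of 24 ABA genes lower for 5 and higher for 0), and of 105 chloroplast-genome genes lower for 1 and higher for 0, the latter with a median change of -1.22 in light leaves. Of 47 histone genes it was higher for 5 and lower for 1. Of 12 cell death genes it was higher for 2 and lower for 0. Of 33 autophagy genes it was higher for 1 and lower for 0. The change differed for 0 of 41 photosystem genes, 0 of 19 Calvin cycle genes and 0 of 5 guard cell markers. The test of the difference was not passed by BFN1 (adjusted p = 0.0176), MC9 (0.195), MYB60 (0.037), SLAC1 (0.013) or LHCB1.3 (0.0399). ABA-related genes also fell in light leaves, 6 of the 16 ABA-responsive genes and 3 of the ABA genes, and 0 rose: PUB19 changed there by -1.22 (adjusted p = 4.94e-06), MYB96 by -1.24 (adjusted p = 6.97e-04), HB-12 by -0.84 (adjusted p = 3.66e-04) and ABI1 by -0.99 (adjusted p = 7.04e-04). Without replicate 1 of 3 d the count of genes whose change differed was 885. In the fit of all WT libraries, replicate 3 of the 6 h light leaves lay apart in ribosomal protein genes (mean 1.61 against 0.0082 and 0.39 in the other two).

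**Figure D4:**
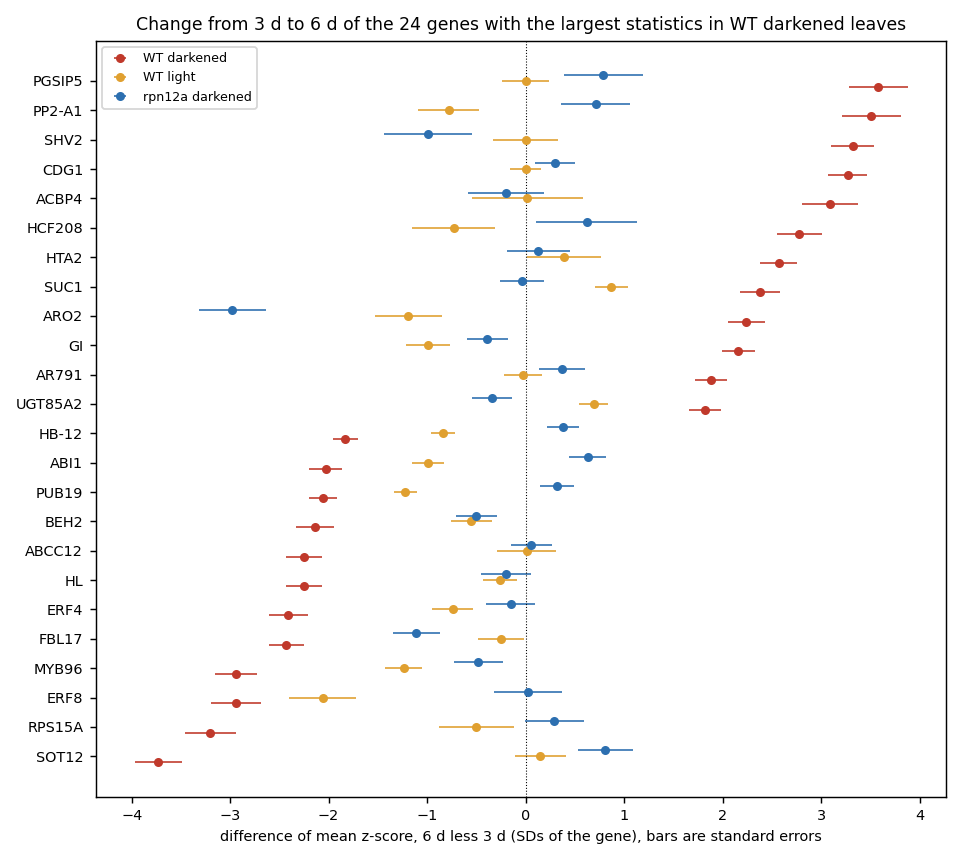
Change of the mean z-score from 3 d to 6 d, in SDs of the gene with standard errors (horizontal axis), in WT darkened, WT light and rpn12a darkened leaves. The 24 genes are those with a symbol that had the largest statistics in WT darkened leaves, 12 in each direction. They were thus chosen for the WT darkened values, and the call of SHV2 among them follows from the filter. The changes of largest size outside WT darkened leaves are those of ERF8 in light leaves (-2.06) and ARO2 in rpn12a (-2.98).

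In rpn12a, 424 of 24407 genes (1.74%) rose from 3 d to 6 d of darkness and 517 (2.12%) fell, 3.86% in all. The RPN12a transcript itself had means of -0.44 and -0.42 in WT and of 1.21 and 1.36 in rpn12a at 3 d and 6 d. The change differed between the genotypes in 2049 genes (8.40%), being more positive in WT for 977 (4.0%) and more negative for 1072 (4.39%). Of the 115 ribosomal protein genes 66 had a more negative change in WT and 0 a more positive one; their median change was -1.34 in WT and 0.55 in rpn12a. AT2G19740, for instance, changed by -2.89 in WT and by 1.45 in rpn12a (adjusted p of the difference 4.63e-07). Of 23 ABA genes 10 and of 16 ABA-responsive genes 9 had a more negative change in WT, and 0 a more positive one: ABI1 changed by -2.03 and 0.63 (1.63e-06), HAI2 by -1.66 and 0.84 (5.92e-06) and PUB19 by -2.06 and 0.32 (8.56e-07). Of the NAC factors, NAC019 changed by -1.43 and 1.37 (1.54e-06). SUC2 (3.49 and -1.42, adjusted p = 4.63e-07) and PROT1 (2.13 and -1.65, adjusted p = 2.39e-07) rose in WT and had negative changes in the mutant. By contrast LHCB1.3 (-1.72 and -1.13, adjusted p = 0.354), BFN1 (1.66 and 0.80, adjusted p = 0.191) and PRODH1 (1.48 and 1.83, adjusted p = 0.638) did not pass the test of a difference, and 0 of 41 photosystem genes did. PRODH1 does not stand for its list. Of 23 genes for amino acid breakdown 7 had a more negative change in WT and 0 a more positive one, and 12 rose in rpn12a. Among them were MGL (-1.19 and 1.69, adjusted p = 3.88e-04) and BCKDHE1A (-0.90 and 1.65, adjusted p = 4.12e-05). With only the 12 libraries of the 4 groups, 1044 genes differed.

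The length of the transcript moved with the direction of change. The median spliced length of the longest annotated transcript was 1923 bases among the genes that rose, 1460 bases among those that fell, 1540 bases among the latter without ribosomal protein products, and 1620 bases over all genes tested. Of 4 length classes of near equal size, in the shortest (up to 1082 bases) 3.12% of the genes rose and 9.08% fell, and in the longest (from 2223 bases) 11.3% rose and 5.41% fell. The 115 ribosomal protein genes, of which 65 fell and 0 rose, had a median length of 951 bases. For the 47 histone genes, of which 15 rose and 2 fell, it was 839 bases. Both lists were formed after some of their members had been seen. The values allow no check of RNA quality, and its part in these changes was not tested, nor was that of transcript length.

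**Figure D5:**
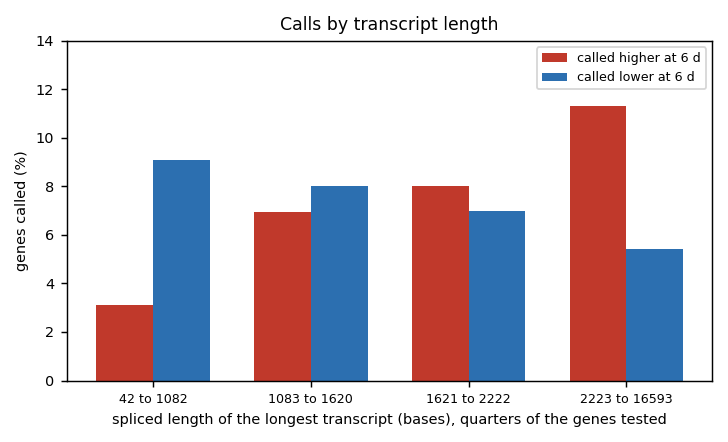
Share of genes called (percent of the genes tested, vertical axis from 0) in 4 near equal classes of spliced transcript length (horizontal axis, bases) in WT darkened leaves, 6 d against 3 d. The share that rose goes from 3.12% to 11.3% and the share that fell from 9.08% to 5.41% as length increases.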

How the data were processed

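RNA of leaf blades was sequenced as oligo(dT)-selected paired-end libraries. The deposited values are scores: per the authors' methods, reads were filtered (SortMeRNA, Trimmomatic; quality by FastQC 0.11.4), transcripts were quantified with kallisto 0.43.0 against the TAIR10 cDNA, gene counts were variance-stabilised without the design in DESeq2 1.14.1, and each gene was scaled to a mean of 0 and an SD of 1 over the 42 libraries (27050 genes). Counts and depth cannot be read back from these scores, so no counting interval is given, and the number of libraries limits the precision.

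Groups were taken from the sample labels. Here limma 3.58.1 in R 4.3.3 was fitted to the 15 WT libraries of the dark course, with the contrast of 6 d less 3 d, moderated variances and Benjamini-Hochberg adjustment, and genes were called at an adjusted p of at most 0.01. A gene was tested where at least 3 libraries of the fit lay above its floor. The differences of the change used the 27 WT libraries (dark against light) and the 30 libraries of the dark course of both genotypes (WT against rpn12a). The test was tried on simulated scores. Figures and tables were made with Python 3.11.15, pandas 2.3.3 and numpy 2.4.6. The replicate numbers did not pair the samples.

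Named genes were the 12 with the largest statistic in each direction that have a symbol, the 4 of smallest p in each list with called members, fixed senescence genes, and up to 6 genes crossing the floor in each direction; genes named beyond these, such as the remaining called members of a list, were chosen after their values were seen. The comparison, the lists and the motifs were chosen with earlier results of these data known. The lists of ABA receptors, ABA-responsive genes, ribosomal proteins and histones, and the telo-box and site II motifs, were added after the values were seen, as was centring of each library. RefSeq (TAIR10.1) matched 26791 of the 27050 gene IDs and supplied symbols, products, lengths and promoter windows. Alternatives changed the libraries fitted, the threshold, the filter, the moderation, the replicate block and the library centring, and left out each library in turn. The values of 1 gene of the ethylene list are not reported here.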

Additional observations from a re-analysis of the deposited data

Results flagged for a closer look

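The change from 3 d to 6 d differed between WT darkened and WT light leaves, by the test of the difference itself, in 1590 genes and in 69 of the 161 named genes. Between WT and rpn12a darkened leaves it differed in 2049 genes and in 80 of the 161 named genes. Most named genes were chosen for their change in WT darkened leaves, which is part of both differences, so the counts among them (against 6.58% and 8.40% of all genes tested) are a description that the choice raises. Both tests use the same 6 libraries of WT darkened leaves, so the counts are not independent of each other.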

How the results depend on the processing

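With an adjusted p of at most 0.001, 538 genes rose and 602 fell between 3 d and 6 d of darkness, and at most 0.05 gave 3266 and 3159. For the difference of the change between darkened and light leaves these thresholds gave 443 and 3495 genes, and for that between WT and rpn12a 723 and 4080. With only the 12 libraries of the 4 groups, 1044 genes differed between WT and rpn12a. Leaving out each of the 6 libraries gave 939 to 1253 genes higher, 913 to 1270 lower, 885 to 1450 whose change differed from light leaves and 1411 to 1704 whose change differed from rpn12a. Under the remaining alternatives all these counts stayed within 1.5 times the main count. With the replicate block 1574 genes rose and 1622 fell, 1456 differed from light leaves and 1915 from rpn12a; deviations of same-numbered libraries of 3 d and 6 d correlated at 0.149, -0.00192 and 0.111 over 17536 genes, so the numbers are not taken to pair them. Of 161 named genes, 121 were called and 80 of these also without each of the 6 libraries. A difference changed sign for AHA3, which ranged from -0.43 (without replicate 1 of 6 d) to 0.03 (without replicate 3 of 6 d), and for RPN12a, which ranged from -0.005 (without replicate 1 of 6 d; -0.0048 without replicate 2 of 3 d) to 0.061 (without replicate 1 of 3 d); neither was called. Scores scaled over 42 libraries hide levels and depth, so low genes near the floor are the least certain.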
